A study of Mus musculus with 6 samples.

Results

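Of the genes of protein folding and quality control in the endoplasmic reticulum, 35 of 36 listed members were measured among 20259 genes on 6 expression arrays of mouse pancreas cells. The members were listed by function: chaperones, disulfide isomerases, degradation factors, stress sensors with their effectors, and factors of protein entry and export. A gene was represented by the row of the deposited table that names it alone and has the highest mean over the arrays. Dnajc3 had no such row, since its row names another gene as well. The arrays came from KCiMist1G mice, described in the series as a preinvasive pancreatic cancer model, with the genotype p120wt/wt (wild type, 3 arrays) or p120f/f (called knockout, 3 arrays). Both groups received tamoxifen at 7 to 9 weeks of age to activate Cre recombinase, and the GFP-positive cells were sorted 2 weeks later. The labels spell out neither KCiMist1G nor the promoter that drives the recombinase. They call the samples of a group biological replicates, without naming single or pooled mice.

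Secreted and membrane proteins fold in the endoplasmic reticulum, where chaperones shield unfolded chains and disulfide isomerases make and shuffle their cysteine bonds. Chains that fail to fold are drawn back to the cytosol and degraded. When unfolded chains build up, the sensors IRE1, PERK and ATF6 start the unfolded protein response, which raises chaperone and degradation genes and slows translation. Acinar cells of the pancreas secrete digestive enzymes in bulk and carry a large endoplasmic reticulum, and Mist1, the product of Bhlha15, and XBP1 are transcription factors of this secretory state.

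Some of these genes share a promoter element, which was found mostly in chaperone genes and also in genes of degradation and disulfide isomerases. In RefSeq promoter windows of GRCm38.p6, from 250 bases before to 50 after a gene's start, 30 of the 36 members had a window. The endoplasmic reticulum stress response element (ERSE), searched on both strands as CCAAT, any 9 bases, then CCACG, was in the windows of 9 of these 30 members (30.0%), against 37 of 27025 genes (0.137%). ERSE-II, searched as ATTGG, any 1 base, then CCACG, was in 2 of 30 (6.67%, against 0.0444% of genes), and its letters overlap those of ERSE in part. The core TGACGTGG, bound by XBP1 and ATF6, was in 0 of 30 (0.714% of genes), and the C/EBP-ATF element TGATGCAA was in 1 of 30 (Herpud1, 1.03% of genes). A match describes letters in a window and is no measured binding site. The members were listed for their part in this compartment and its stress response, for which the ERSE is named. Its excess over all genes is thus no independent result. The elements follow 5′ to 3′ with the searched letters in capitals, each with its place and the position of its base farthest upstream relative to the gene's start base, which is counted as 0.
Calr (chr8:84847075-84847093, gene on the reverse strand, element opposite to the gene, position -162): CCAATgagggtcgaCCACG
Canx (chr11:50325800-50325818, gene on the reverse strand, element along the gene, position -145): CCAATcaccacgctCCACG
Creld2 (chr15:88819520-88819538, gene on the forward strand, element opposite to the gene, position -126): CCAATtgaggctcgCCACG
Derl3 (chr10:75893242-75893260, gene on the forward strand, element opposite to the gene, position -156): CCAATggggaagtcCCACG
Dnajc3 (chr14:118937827-118937845, gene on the forward strand, element along the gene, position -105): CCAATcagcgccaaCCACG
Hsp90b1, first copy (chr10:86705638-86705656, gene on the reverse strand, element along the gene, position -212): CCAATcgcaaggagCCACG
Hsp90b1, second copy (chr10:86705533-86705551, gene on the reverse strand, element opposite to the gene, position -107): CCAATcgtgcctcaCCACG
Hspa5 (chr2:34772025-34772043, gene on the forward strand, element along the gene, position -65): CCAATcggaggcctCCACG
Pdia6 (chr12:17266491-17266509, gene on the forward strand, element along the gene, position -98): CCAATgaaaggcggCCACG
Syvn1 (chr19:6046532-6046550, gene on the forward strand, element along the gene, position -44): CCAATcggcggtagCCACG
Dnajb11, ERSE-II (chr16:22857852-22857862, gene on the forward strand, element along the gene, position 7): ATTGGcCCACG
Herpud1, ERSE-II (chr8:94386377-94386387, gene on the forward strand, element along the gene, position -52): ATTGGgCCACG

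The whole windows of Hspa5, Syvn1 and Derl3 are given because Hspa5 is the best-known target of this element, and Syvn1 and Derl3 are the degradation genes that hold it. The capitals mark the searched letters, which in Derl3 stand as their reverse complement.
Hspa5 (chr2:34771840-34772139, forward strand): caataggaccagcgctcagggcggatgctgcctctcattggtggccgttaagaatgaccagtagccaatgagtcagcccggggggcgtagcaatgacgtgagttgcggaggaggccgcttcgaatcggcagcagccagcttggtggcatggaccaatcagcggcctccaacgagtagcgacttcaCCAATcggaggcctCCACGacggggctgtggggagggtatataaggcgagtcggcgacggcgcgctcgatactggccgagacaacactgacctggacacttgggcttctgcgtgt
Syvn1 (chr19:6046326-6046625, forward strand): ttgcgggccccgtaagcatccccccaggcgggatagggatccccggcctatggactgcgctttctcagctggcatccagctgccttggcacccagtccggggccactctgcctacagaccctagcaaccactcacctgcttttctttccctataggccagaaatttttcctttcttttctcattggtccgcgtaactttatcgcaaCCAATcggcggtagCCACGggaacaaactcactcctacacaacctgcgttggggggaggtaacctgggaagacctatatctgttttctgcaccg
Derl3 (chr10:75893148-75893447, forward strand): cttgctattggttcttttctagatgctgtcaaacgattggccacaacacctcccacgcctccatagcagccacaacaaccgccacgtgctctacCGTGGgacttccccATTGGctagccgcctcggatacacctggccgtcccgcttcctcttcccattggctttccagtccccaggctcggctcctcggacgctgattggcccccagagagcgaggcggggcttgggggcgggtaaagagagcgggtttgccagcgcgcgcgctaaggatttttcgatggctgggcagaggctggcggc

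The arrays were not alike within the knockout group. On the first principal component of all genes, which held 51.7% of the variance, knockout array 1 lay at -38.1, knockout arrays 2 and 3 at 28.4 and 37.1, and the wild-type arrays between -14.9 and -4.16. Ctnnd1, which encodes p120 catenin, was taken as a check of the labels. With 5.61, 6.61 and 6.38 in knockout and 5.87, 6.81 and 6.44 in wild type, it had a difference of -0.17 (SE 0.32, limma adjusted p = 0.922). Without knockout array 1 the difference was 0.12. These log2 values did not separate the genotypes, so they do not show the loss of Ctnnd1. Whether its row reads the deleted part is not given in the sources used here. Directions follow the labelled genotypes. The groups also differed in sex, since Xist, the X-inactivation transcript, was at 9.97 to 11.40 on knockout array 3 and wild-type arrays 1 and 2 and at 3.56 to 3.98 on the other arrays. The Y-linked gene Uty was at 2.73 and 3.19 on those 2 wild-type arrays, at 7.15 to 8.15 on the arrays low in Xist, and at 4.67 on knockout array 3. Eif2s3y (4.76) and Kdm5d (4.81) also lay between the other arrays there, so knockout array 3 matched neither set. The part of sex in any difference was not tested.

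No member passed limma's threshold between knockout and wild type, an adjusted p under 0.05 over all 20259 genes, where 0% of all genes passed. Among members the smallest adjusted p was 0.907. Without adjustment, 0 members had a p under 0.05 and were higher in knockout (2.31% of all genes), and 1 was lower, Ern1 (1.19% of all genes). Differences on the log2 scale ran from -0.39 for Ern1 to 0.14 for Derl3, and the 95% confidence intervals reached from -1.08 for Sec61b to 0.69 for Derl3.

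Most differences were small and below 0 as the table was deposited, which depended on the scaling of the arrays and on knockout array 1. Of the 35 members 28 had a difference below 0 (38.3% of all genes did), but 17 after a further quantile normalization (43.0% of all genes), 33 with the arrays shifted to 1 median (56.9%) and 17 without knockout array 1 (34.7%). The share of all genes below 0 thus moved with the shift as well. The median difference was -0.08, against 0.05 over all genes, and without knockout array 1 it was 0.0025, against 0.11. All 35 members were among the 10129 genes above the median level. Of those genes 50.1% had a difference below 0, with a median of -0.0003, so the background depended on level too. All 3 knockout arrays lay below all 3 wild-type arrays for 6 members, namely P4hb, Pdia3, Erp44, Syvn1, Ern1 and Ssr1 (2.47% of all genes), and above for 0 (6.21% of all genes). After the quantile normalization 0 members had separate groups (3.36% of all genes lower, 4.09% higher), and with arrays shifted to 1 median 10 did, all lower (5.40% of all genes lower, 3.04% higher). Of the 35 members, 10 kept the sign of their difference in all alternatives that could move it, of which 9 moved every member and 2, the row choices, moved some. These were Calr, Dnajb9, P4hb, Pdia3, Erp44, Syvn1, Ern1, Atf4, Ppp1r15a and Ssr1. The same count over all genes is not given here, so it is no result about the members. Ern1 is among them although its other row differed by 0.11.

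**Figure D1:**
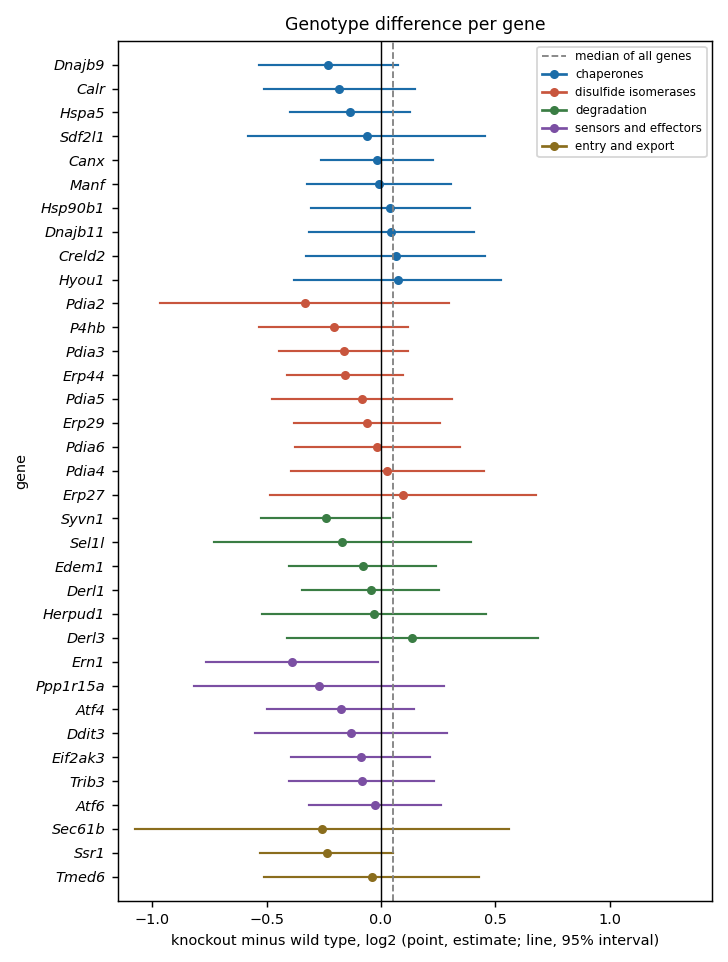
Knockout minus wild-type difference (log2, x axis) of each of the 35 genes (y axis), coloured by class, with 95% confidence intervals from limma; the dashed line is the median of all genes (0.05). Points run from -0.39 (Ern1) to 0.14 (Derl3), and the interval of Ern1 alone stays below 0; after a further quantile normalization 17 rather than 28 differences lay below 0.

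Among the chaperones and their partners, 10 of 11 listed members were measured and 6 had a difference below 0 (3 after quantile normalization, 10 with arrays shifted to 1 median). The class median was -0.01. Hspa5 encodes BiP, the main Hsp70 chaperone of the compartment and the regulator of the stress sensors. It measured 10.54, 10.68 and 10.51 in knockout and 10.67, 10.70 and 10.77 in wild type. The groups overlapped by knockout array 2 alone, and the difference was -0.13 (SE 0.11, 95% confidence interval -0.40 to 0.13, adjusted p = 0.907), or 0.046 after quantile normalization.

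Calr, the lectin chaperone calreticulin, measured 9.33, 9.23 and 9.00 in knockout and 9.48, 9.20 and 9.43 in wild type. Knockout array 3 was the lowest of all 6 arrays and wild-type array 1 the highest. Dnajb9 encodes ERdj4, a co-chaperone of BiP that is induced through IRE1 and XBP1. It measured 7.86, 8.05 and 8.13 in knockout and 8.11, 8.33 and 8.29 in wild type, a difference of -0.23 (SE 0.13, adjusted p = 0.907). A second row of Dnajb9 differed by -0.24. Only knockout array 3 and wild-type array 1 overlapped in the row used.

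The other chaperone genes had differences between -0.06 and 0.07. Canx, the membrane-bound relative of calreticulin, was the most even of them, between 8.39 and 8.46 on all 6 arrays. Sdf2l1, a partner of BiP and ERdj3, differed by -0.06, and Manf, a secreted BiP cofactor, by -0.01. Hsp90b1 (GRP94, the Hsp90 of the compartment) differed by 0.04, Dnajb11 (ERdj3) by 0.04, Creld2, a stress-induced secreted protein, by 0.06, and Hyou1 (GRP170, a nucleotide exchange factor of BiP) by 0.07. All 4 of these positive differences were below 0 with the arrays shifted to 1 median, from -0.04 to -0.01.

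Of the 9 disulfide isomerases and their relatives, 7 had differences below 0 (6 after quantile normalization, 8 with arrays shifted to 1 median), with a median of -0.08. P4hb, the founding isomerase PDI, measured 9.82, 10.22 and 10.16 in knockout and 10.34, 10.23 and 10.24 in wild type. Its groups stood apart by a narrow gap, and the difference was -0.21 (SE 0.14, adjusted p = 0.907). Without knockout array 1 it was -0.09.

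Pdia3 encodes ERp57, which works with calnexin and calreticulin on glycoproteins. It measured 9.62, 9.76 and 9.47 in knockout and 9.76, 9.78 and 9.79 in wild type, where the closest arrays of the groups were equal to 2 decimals and the knockout array was the lower. The difference was -0.16 (SE 0.12, adjusted p = 0.907). Erp44, which retains client proteins and oxidases by disulfide bonds, measured 7.14, 7.21 and 7.16 in knockout and 7.28, 7.29 and 7.41 in wild type. Its 3 knockout arrays lay close together (SD 0.03), and the difference of -0.16 (SE 0.11) moved only between -0.18 and -0.12 when any 1 array was left out. A second row of Erp44 differed by -0.21. For each of P4hb, Pdia3 and Erp44 the exact two-sided permutation p was 0.1, the smallest that 3 arrays against 3 can give. Groups that do not overlap always give this value, so here and below it adds nothing to the separation.

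Pdia2 and Erp27, chosen for description after their values were seen, spread widely within the knockout group. Pdia2, an isomerase made mainly in the pancreas, measured 10.31, 11.29 and 11.19 in knockout and 11.00, 11.42 and 11.37 in wild type. Its difference was -0.33 (SE 0.27), and -0.02 without knockout array 1. Erp27, a pancreatic member of the family without the catalytic cysteines, measured 8.90, 9.88 and 9.74 in knockout and 9.38, 9.39 and 9.45 in wild type. One knockout array was thus below, and 2 were above, all wild-type arrays, and the difference was 0.10 (SE 0.25, adjusted p = 0.943), or 0.40 without knockout array 1 (SE 0.10, adjusted p = 0.0757). Pdia4, Pdia5, Pdia6 and Erp29 had differences of 0.03, -0.08, -0.02 and -0.06.

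**Figure D2:**
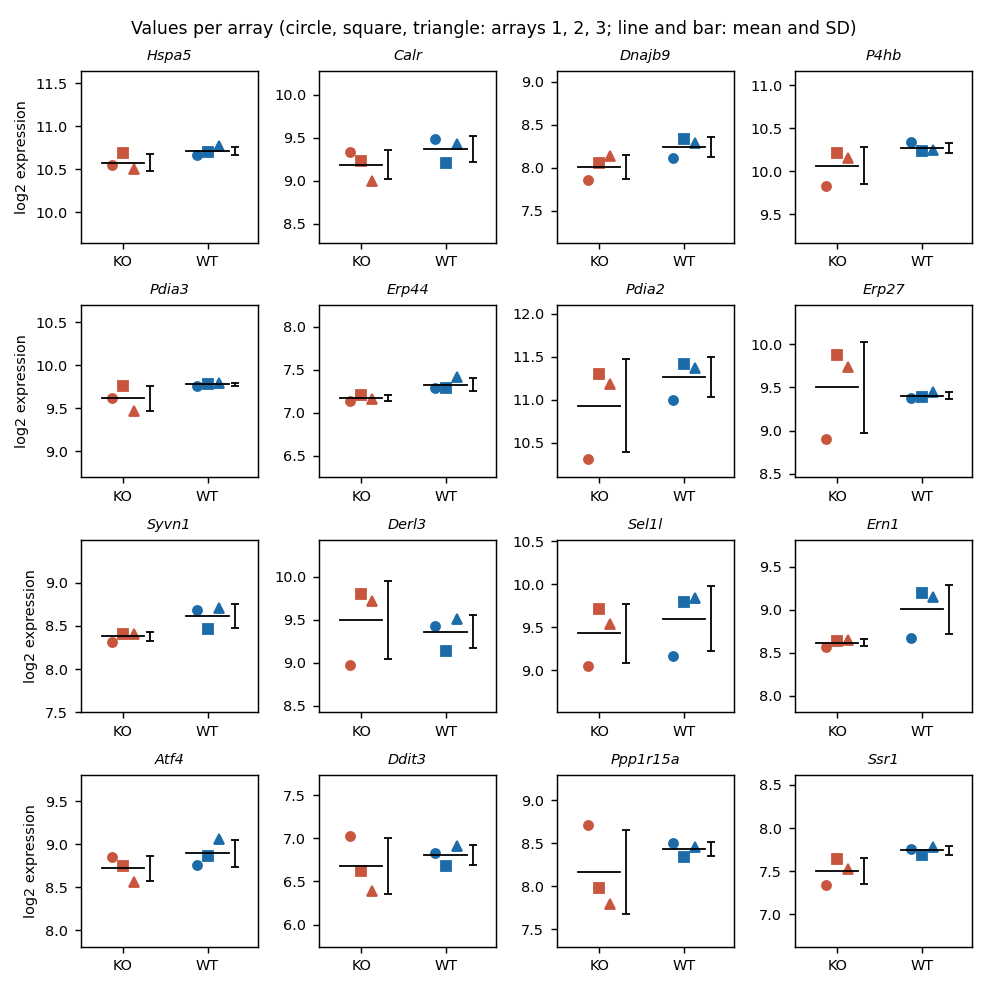
Log2 expression (y axis, each panel spans 2 log2 units) of 16 genes on the 3 knockout (KO) and 3 wild-type (WT) arrays, with group means as lines and SD as bars. Erp44, Syvn1 and Ern1 have tight knockout values below all wild-type arrays, while in Pdia2, Erp27 and Derl3 the circle of knockout array 1 lies below arrays 2 and 3, and in Ppp1r15a above them.

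Genes of degradation from the endoplasmic reticulum had 5 of 6 differences below 0 (1 of 6 after quantile normalization, 5 of 6 with arrays shifted to 1 median), with a median of -0.06. Syvn1 encodes HRD1, the ubiquitin ligase at the centre of this pathway. It measured 8.32, 8.41 and 8.41 in knockout and 8.69, 8.46 and 8.71 in wild type. The groups did not overlap, and the difference was -0.24 (SE 0.12, 95% confidence interval -0.53 to 0.04, adjusted p = 0.907, exact permutation p = 0.1). It stayed between -0.32 and -0.20 when any 1 array was left out.

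Sel1l, the adaptor of HRD1, did not share the separation of its partner. Its values were 9.05, 9.71 and 9.54 in knockout and 9.17, 9.79 and 9.84 in wild type, so that array 1 of each group was low. The difference was -0.17 (SE 0.24), and 0.02 without knockout array 1. Edem1, a mannosidase-like factor that marks glycoproteins for disposal, measured 9.32, 9.68 and 9.62 in knockout and 9.70, 9.53 and 9.62 in wild type, a difference of -0.08. Herpud1, a membrane scaffold of the ligase, differed by -0.03, and the channel protein gene Derl1 by -0.04.

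Derl3, an inducible relative of Derl1 described here after its values were seen, had the highest difference of any member, 0.14 (SE 0.23, adjusted p = 0.916). It measured 8.97, 9.80 and 9.72 in knockout and 9.43, 9.14 and 9.51 in wild type. Without knockout array 1, Derl3 differed by 0.40 (SE 0.13, adjusted p = 0.123) and Syvn1 by -0.21 (SE 0.11, adjusted p = 0.257). The groups of these genes were then apart in opposite directions, which was common without that array (34.2% of all genes apart higher, 16.8% lower). Both promoter windows hold the ERSE shown above. Over the 8 measured members with an ERSE the median difference was -0.02, and over the 21 measured members whose window had none it was -0.16. This describes members chosen with results known, at the deposited scaling. The split also follows class: Calr, Canx, Creld2, Hsp90b1 and Hspa5 are chaperones (class median -0.01), and no sensor, effector, entry or export gene held an ERSE. Erp29, Derl1, Erp27, Manf, Atf6 and Hyou1 had no window and are in neither median.

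All 7 sensors and stress effectors had differences below 0, with a median of -0.13 (5 of 7 after quantile normalization, 7 of 7 with arrays shifted to 1 median). Ern1 encodes IRE1, the kinase and RNase that splices Xbp1 messenger RNA. It measured 8.57, 8.63 and 8.65 in knockout and 8.67, 9.19 and 9.15 in wild type, so the knockout arrays were tight and wild-type array 1 lay beside them. The difference was -0.39 (SE 0.16, 95% confidence interval -0.77 to -0.01, unadjusted p = 0.0450 and adjusted p = 0.907 in limma, exact permutation p = 0.1). A second row of Ern1 differed in the opposite direction, by 0.11, with 7.90, 8.59 and 8.53 in knockout and 8.13, 8.32 and 8.24 in wild type. With the mean of rows, the difference of Ern1 was -0.14 and 0 members had an unadjusted p under 0.05. When any 1 array other than wild-type array 1 was left out, limma's unadjusted p for Ern1 lay between 0.0757 and 0.152, with differences of -0.40 to -0.30.

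The sensors Eif2ak3 (PERK, which slows translation by phosphorylating eIF2-alpha) and Atf6 (a membrane-bound transcription factor freed by cleavage) differed by -0.09 and -0.03. Atf4, the transcription factor translated when PERK is active, measured 8.85, 8.75 and 8.56 in knockout and 8.76, 8.86 and 9.06 in wild type, a difference of -0.18 (SE 0.14). Trib3, a pseudokinase target of ATF4, differed by -0.08. Transcript levels do not report the splicing, phosphorylation or cleavage by which these sensors act.

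Ppp1r15a and Ddit3, effectors downstream of ATF4, had the reverse layout of Pdia2 and Erp27 within the knockout group. Ppp1r15a encodes GADD34, which restores translation by dephosphorylating eIF2-alpha. It measured 8.71, 7.98 and 7.79 in knockout and 8.50, 8.34 and 8.45 in wild type, with knockout array 1 above and arrays 2 and 3 below all wild-type arrays. The difference was -0.27 (SE 0.23, adjusted p = 0.907) with all arrays and -0.55 (SE 0.11, adjusted p = 0.0604) without knockout array 1. Ddit3 encodes CHOP, a transcription factor linked to cell death under stress, and was chosen after its values were seen. It measured 7.02, 6.62 and 6.39 in knockout and 6.83, 6.68 and 6.91 in wild type, a difference of -0.13 (SE 0.18), or -0.30 without knockout array 1.

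The genes of protein entry and export had 3 of 3 differences below 0 (2 of 3 after quantile normalization, 3 of 3 with arrays shifted to 1 median). Ssr1, a subunit of the translocon-associated protein complex, measured 7.34, 7.65 and 7.52 in knockout and 7.75, 7.68 and 7.78 in wild type, with groups apart and a difference of -0.24 (SE 0.12, adjusted p = 0.907). Sec61b, a subunit of the translocation channel, measured 6.66, 7.81 and 8.10 in knockout and 7.58, 7.95 and 7.81 in wild type. Its difference of -0.26 (SE 0.35) became 0.17 without knockout array 1, and another row of it differed by 0.11. Tmed6, a cargo receptor of the early secretory route that is abundant in the pancreas, measured 10.46, 11.16 and 11.16 in knockout and 10.98, 10.93 and 10.99 in wild type. Its difference was -0.04, and 0.19 without knockout array 1.

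**Figure D3:**
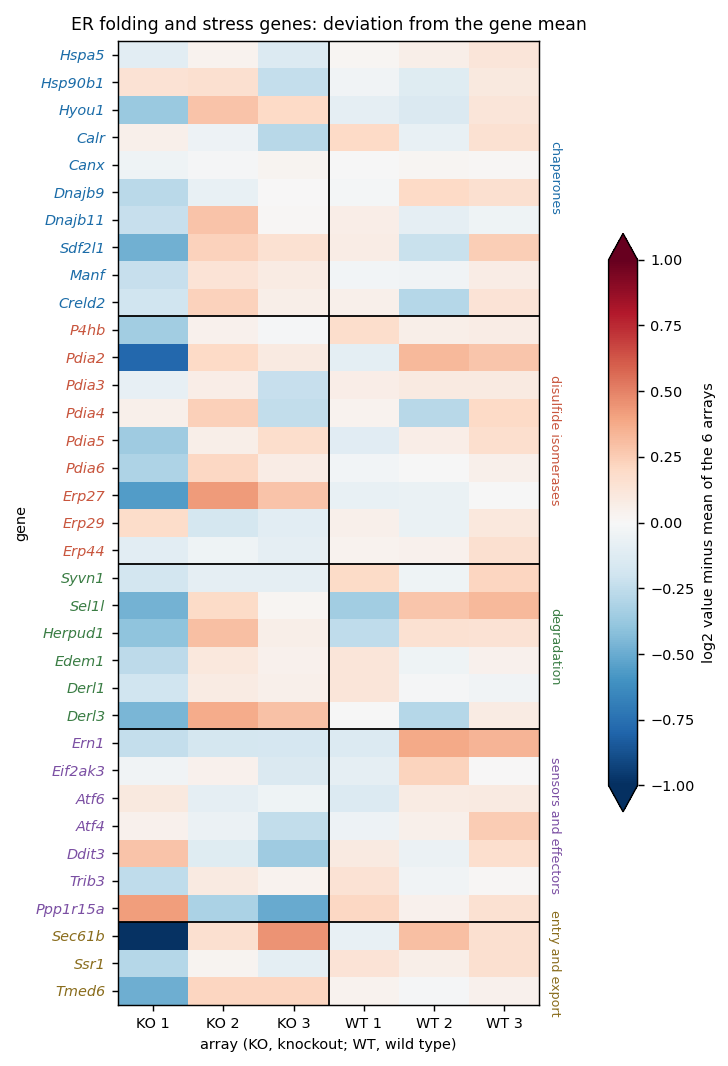
Each cell is the log2 value of 1 gene (y axis, grouped by class) on 1 array (x axis) minus the gene's mean over the 6 arrays, with blue below and red above the mean; Sec61b on KO 1 lies at the lower end of the scale. KO 1 is the bluest column for the folding, degradation and entry genes, and Ppp1r15a and Ddit3 are red there.

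The knockout arrays differed among themselves in these genes, as they did over all genes. Knockout array 1 was the lowest of the 6 arrays for 23 of 35 members (65.7%, against 29.5% of all genes), and this number was 28 after quantile normalization (33.2% of all genes) and 19 with arrays shifted to 1 median (30.9% of all genes). It included 6 of 6 degradation genes, 3 of 3 entry and export genes, 6 of 9 disulfide isomerases and 6 of 10 chaperones, but 2 of 7 sensors and effectors. Knockout array 1 was below all wild-type arrays for 25 members (32.7% of all genes) and above them for 5 (25.7% of all genes). It was the highest of all 6 arrays for 4 members, Erp29, Atf6, Ddit3 and Ppp1r15a (17.6% of all genes). Among the 61 further genes of the pathway described below, knockout array 1 was the lowest array for 55.7% and the highest for 9.84%. It was below all wild-type arrays for 65.6% of them, so this layout was not particular to the members.

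Knockout array 1 minus the mean of knockout arrays 2 and 3 had a median of -0.46 over the degradation genes, -0.36 over the isomerases, -0.28 over the chaperones and -0.70 over the entry and export genes. The corresponding median over all genes was -0.15. After quantile normalization these medians were -0.83, -0.56, -0.50 and -1.19, against -0.13 over all genes, and with arrays shifted to 1 median they were -0.38, -0.28, -0.21 and -0.62, against -0.07. For sensors and effectors the median was 0.16, or -0.05 after quantile normalization and 0.24 with arrays shifted to 1 median. Single members ran from -1.29 for Sec61b, -0.93 for Pdia2 and -0.91 for Erp27 to 0.52 for Ddit3 and 0.83 for Ppp1r15a, and these 5 kept their sign under both other scalings. The SD among knockout arrays exceeded that among wild-type arrays for 27 members (77.1%, against 70.2% of all genes). The median SDs were 0.21 in knockout and 0.12 in wild type over the members, and 0.21 and 0.13 over all genes, so the members did not stand apart in this. These contrasts set 1 array against 2 of the same group and have no test.

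**Figure D4:**
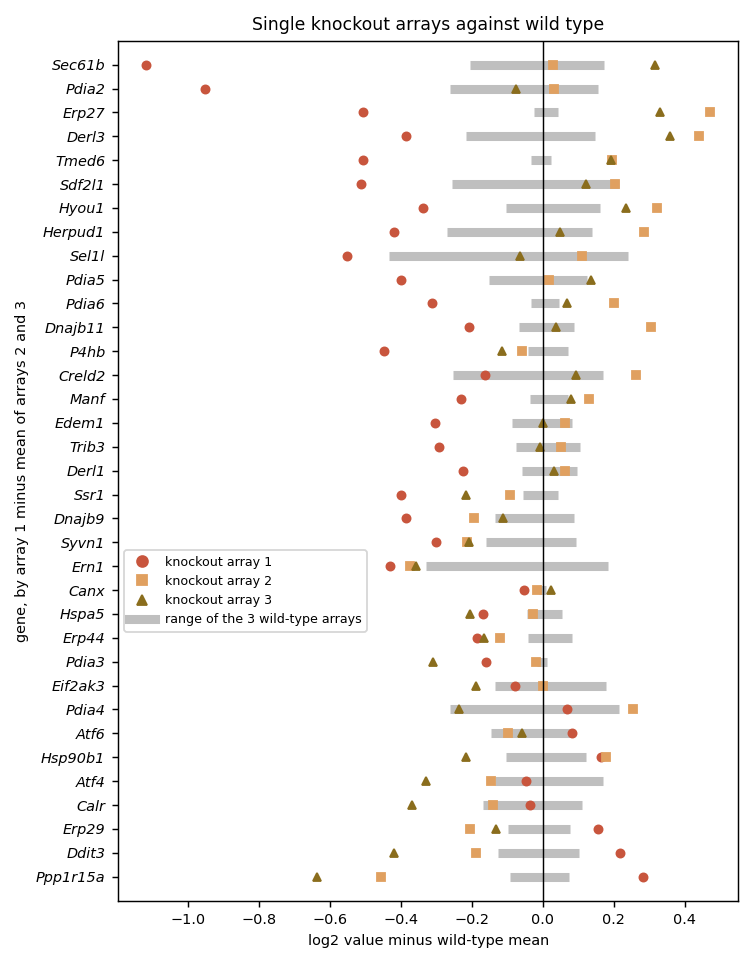
Each knockout array's log2 value minus the wild-type mean (x axis) for each gene (y axis), ordered by knockout array 1 minus the mean of arrays 2 and 3; grey bars span the 3 wild-type arrays. Array 1 lies left of both arrays 2 and 3 for 24 genes, among them all from Sec61b to Syvn1, and right of both for Atf6, Atf4, Calr, Erp29, Ddit3 and Ppp1r15a.

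For 13 members knockout array 1 was below the wild-type mean while knockout arrays 2 and 3 were both above it (37.1%, against 33.8% of all genes). For 4 the layout was the reverse (11.4%, against 17.6% of all genes). Both shares are near the background and are no result about the members. Without knockout array 1, 2 members were higher in knockout at an unadjusted p under 0.05, Erp27 and Derl3 (18.5% of all genes), and 2 were lower, Ppp1r15a and Ddit3 (10.8% of all genes). In that fit 0 members passed the adjusted threshold (0.00987% of all genes), with a smallest adjusted p of 0.0604.

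Levels of cell type markers also differed among these arrays. Of 10 listed acinar markers 8 were measured, and their mean log2 value was 10.81 for knockout array 1, 11.57 and 11.58 for the other knockout arrays, and 11.31 to 11.42 in wild type. The log2 of their summed level was 15.11 to 15.43 in knockout and 15.32 to 15.35 in wild type. Leukocyte markers (25 of 27 measured, over plasma and B cells, T and NK cells, macrophages and neutrophils) had means of 8.29 for knockout array 1, 7.07 and 7.09 for the other knockout arrays, and 7.80 to 7.92 in wild type. The log2 of their summed level was 12.22 to 13.59 in knockout and 12.90 to 13.15 in wild type, and RMA values have no 0 at which a marker would count as absent.

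Plasma cells, which also carry a large endoplasmic reticulum, were part of this list. Jchain, the joining chain of secreted antibodies, was at 11.72 for knockout array 1, 9.91 and 9.73 for the other knockout arrays, and 10.03 to 11.08 in wild type. Not every leukocyte list was highest on knockout array 1: the mean of T and NK cell markers was 7.50 there and 7.78 and 7.82 on wild-type arrays 1 and 3, and that of macrophage markers was 8.23 there and 8.33 on wild-type array 2.

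The mean difference between the genotypes was below 0 in every marker list, from -0.06 (acinar) to -0.55 (neutrophils). Of these markers 0 passed the adjusted threshold. Fibroblast markers were below wild type in 9 of 9, with means of 5.59 to 6.11 in knockout and 5.93 to 6.91 in wild type. T and NK cell markers were lower in 6 of 6 (means 6.96 to 7.50 and 7.27 to 7.82), and neutrophil markers in 4 of 4 (6.06 to 7.86 and 6.96 to 7.41). Macrophage markers were lower in 6 of 7, plasma and B cell markers in 5 of 8, islet markers in 5 of 7 and acinar markers in 5 of 8. Endothelial markers were lower in 4 of 5 and duct markers in 2 of 3. Below 0 were 38.3% of all genes and 50.1% of those above the median level. The fibroblast, T and NK cell and islet lists each had 2 markers at an unadjusted p under 0.05 in limma, and the other single lists had 0. The part of these cell types in the differences above was not tested. In sorted bulk cells fewer cells of a type and less RNA per cell cannot be told apart.

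**Figure D5:**
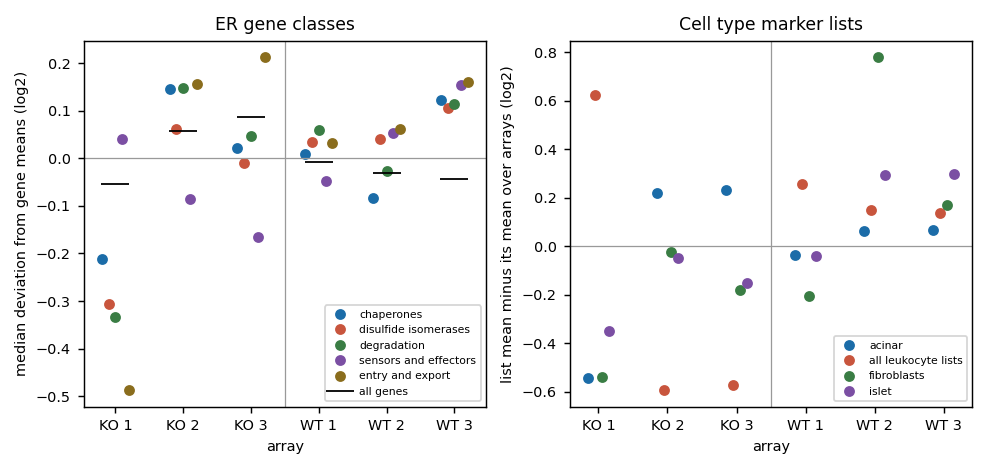
Left, median deviation from gene means (log2, y axis) of each class of genes on each array (x axis), with all genes as a dash. Right, mean of acinar, leukocyte, fibroblast and islet markers minus its mean over the arrays. On KO 1 the entry and export class lies at -0.49 and the degradation class at -0.33, where the acinar mean is lowest and the pooled leukocyte mean highest, though the T and NK cell and macrophage lists within it are not.

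Further genes of the pathway were taken as a list of 65, of which 61 were measured and 0 passed the adjusted threshold (0% of all genes). Differences were above 0 for 27 and below 0 for 34, with a median of -0.03 (0.05 over all genes). Below 0 were 38.3% of all genes and 50.1% of those above the median level. At an unadjusted p under 0.05 there were 1 higher (2.31% of all genes) and 0 lower (1.19% of all genes). The former was Ero1b, the pancreatic oxidase that recharges PDI, at 11.45, 12.34 and 12.10 in knockout and 11.59, 11.31 and 11.35 in wild type. Its difference was 0.55 (SE 0.23, adjusted p = 0.907), and its 5 other rows differed by -0.42 to 0.61. Without knockout array 1 it was 0.81 (adjusted p = 0.0542). Groups were apart for 5 of the 61 (8.2%), all lower: Creb3, Ero1a, Ssr3, Sec62 and, named after its values were seen, Stt3a. Over all genes 2.47% were apart lower and 6.21% higher.

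The transcription factors of the secretory state were in this list. Xbp1 measured 9.82, 10.11 and 10.09 in knockout and 9.76, 9.90 and 9.80 in wild type, a difference of 0.18 (SE 0.13, adjusted p = 0.907). Bhlha15, which encodes Mist1, measured 8.61, 9.93 and 10.06 in knockout and 9.66, 9.60 and 9.72 in wild type. Its wild-type arrays were tight (SD 0.06), knockout array 1 was 1.05 log2 units below their mean, and knockout arrays 2 and 3 were above all of them. The difference was -0.13 (SE 0.36, adjusted p = 0.948) with all arrays and 0.33 without knockout array 1.

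By sublist, the median difference was 0.0061 for 7 factors of the XBP1 and ATF6 arms, with 4 differences above 0 and 3 below. The median was -0.05 for 18 genes of oxidative and glycoprotein folding and -0.0029 for 10 genes of degradation. For 18 genes of the translocon, signal peptidase and oligosaccharyltransferase it was -0.08, and for 8 targets of the integrated stress response 0.05. Translocon and glycosylation genes had 13 of 18 differences below 0, the smallest p-values belonging to Sec11a (-0.29, signal peptidase), Ssr3 (-0.16) and Sec62 (-0.15). Os9, a lectin of degradation, differed by 0.20, Erlec1 by 0.18 and Selenos by -0.19. Atf5 and Sesn2, targets of the integrated stress response, differed by 0.14 and 0.20, and Ppp1r15b, the constitutive relative of GADD34, by -0.15.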

How the data were processed

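The deposited table holds log2 values for all 6 arrays. RMA and Partek, without versions, are named per the submitters' processing notes. RMA corrects background, normalizes arrays and summarises probes, which compresses differences of dim genes. Build and annotation were not given in the sources used here. Medians of the arrays ran from 4.09 to 4.25, and the table holds no detection calls or scan dates. The precision is limited by the number of arrays, 3 per group. Of 115830 rows, 25539 name 1 gene (2300 several, 87991 unnamed here), giving 20259 genes by the row of highest mean. Rows can also read paralogs.

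Knockout minus wild type was fitted for every gene, with no filter, by lmFit and eBayes of limma 3.58.1 (R 4.3.3), with Benjamini-Hochberg adjustment at a threshold of 0.05. The fit was also run on simulated data, where changes slightly larger than any member's difference were missed. A lack of calls thus does not exclude differences of the size seen here. Exact permutation tests were two-sided. Lists got counts and medians, with no set test. The members, lists and tests were chosen with earlier results of these data known. Every member is named; values on all arrays are printed for the 3 of smallest p per class, for separated members, and for some chosen after their values were seen. Alternatives were other scalings, filters, row choices, variance models, array weights, blocking by replicate number, and leaving out each array. Promoter windows are RefSeq's (GRCm38.p6), matched by symbol.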

Additional observations from a re-analysis of the deposited data

How the results depend on the processing

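The members' counts and signs depended on scaling, on row choice and on knockout array 1. Every setting except array weights left 0 members past the adjusted threshold. At an unadjusted p under 0.05 the number lower went from 1 to 5 with arrays shifted to 1 median. It went to 0 after quantile normalization, with the row of largest interquartile range, the mean of rows, an intensity trend or a replicate block. In these settings 3.01% to 3.78% of all genes had such a p in either direction. Same-numbered arrays did not pair (correlations of deviations 0.041, 0.138 and -0.154), and the replicate block gave 0 adjusted calls. After quantile normalization 17 differences lay below 0 and 0 members had groups apart, while the shift gave 10 apart. The number of further genes of the pathway higher at an unadjusted p, 1 at first, was 2 with the row of largest interquartile range. It was 0 after quantile normalization, the shift, the filter to genes above the median level, the trend and the replicate block. The number lower was 1 with the shift. In these settings 2.39% to 3.78% of the genes tested had such a p in either direction. Array weights (0.142 for knockout array 1, 8.57 for array 2, 0.677 for array 3, from a fit that stopped with a convergence warning) gave 3 members past the adjusted threshold (23.7% of all genes), Erp27 (0.45, adjusted p = 0.0324), Derl3 (0.42, adjusted p = 0.0411) and Ppp1r15a (-0.46, adjusted p = 0.0287). They gave 4 members higher and 5 lower at an unadjusted p (28.4% and 14.7% of all genes), 16 differences below 0 (36.8% of all genes), and 11 adjusted calls, 11 higher and 4 lower at an unadjusted p, among the further genes.

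The sign of a difference turned after quantile normalization for Hspa5 (0.046), Canx (0.057), Sdf2l1 (0.089), Pdia6 (0.067), Sel1l (0.0072), Herpud1 (0.12), Edem1 (0.0898), Derl1 (0.13), Eif2ak3 (0.0058), Atf6 (0.031) and Tmed6 (0.075). With the shift it turned for Hsp90b1 (-0.043), Hyou1 (-0.011), Dnajb11 (-0.0395), Creld2 (-0.0201) and Pdia4 (-0.056), and with the row of largest interquartile range for Pdia5 (0.036) and Sec61b (0.11). With array weights it turned for Sdf2l1 (0.18), Manf (0.12), Pdia2 (0.0047), Pdia5 (0.016), Pdia6 (0.18), Sel1l (0.0795), Herpud1 (0.25), Edem1 (0.054), Derl1 (0.056), Trib3 (0.042), Sec61b (0.029) and Tmed6 (0.18). Causes were not tested.

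With each array left out in turn, members higher at an unadjusted p numbered 0 to 2 and lower 0 to 2. Among the further genes these numbers were 0 to 11 and 0 to 4. Over all genes 1.92% to 29.3% had such a p in either direction, the most without knockout array 1 (18.5% higher, 10.8% lower). Without that array the further genes gave the 11 and the 4. Members with groups apart numbered 0 to 6 higher (8.27% to 34.2% of all genes) and 6 to 11 lower (4.03% to 16.8%). Differences below 0 numbered 17 to 33 (34.7% to 44.5%). The highest counts, other than 11 apart without wild-type array 1 (5.65% of all genes lower) and 33 below 0 without knockout array 2, came without knockout array 1, which also gave the 17. Class medians ran from -0.24 to -0.087 for sensors and effectors and from -0.31 to 0.17 for entry and export. Signs turned for 22 members, with ranges of Hsp90b1 -0.027 to 0.17, Canx -0.035 to 0.0025, Sdf2l1 -0.20 to 0.16, Manf -0.076 to 0.10, Pdia5 -0.19 to 0.076, Pdia6 -0.12 to 0.13, Sel1l -0.39 to 0.023, Herpud1 -0.19 to 0.17, Edem1 -0.15 to 0.031, Derl1 -0.097 to 0.046, Trib3 -0.15 to 0.021, Sec61b -0.55 to 0.17, Tmed6 -0.16 to 0.19, Hyou1 -0.052 to 0.28, Dnajb11 -0.086 to 0.17, Creld2 -0.062 to 0.18, Pdia4 -0.10 to 0.16, Erp27 -0.089 to 0.40, Erp29 -0.17 to 0.011, Derl3 -0.014 to 0.40, Atf6 -0.099 to 0.014 and Ddit3 -0.30 to 0.015.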
